A study of Mus musculus with 2 samples.

Results

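The endothelial cells of 6 hashtag populations were compared, A0301, A0302 and A0303 against A0308, A0309 and A0310. A cell counted as endothelial when at most 25% of its reads were mitochondrial, at least 3 of the 5 markers Pecam1, Cdh5, Cldn5, Egfl7 and Flt1 reached 100 CPM (counts per 1000000 reads, here of that cell's reads), and C1qa, C1qb, Lum and Dpt, markers of macrophages and fibroblasts, summed to under 500 CPM. This rule took 708 cells, with 80 in A0301, 90 in A0302 and 134 in A0303, and with 112 in A0308, 144 in A0309 and 148 in A0310, out of 7858 cells of these 6 tags and 12040 deposited cell columns. Just inside the marker threshold were 148 cells with 3 markers and just outside it 97 cells with 2, and the limit on macrophage and fibroblast markers removed 81 of 789 cells.

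The cells came from the stromal vascular fraction of epididymal fat, the non-adipocyte cells left after digestion, of male C57BL/6J mice on a standard diet (16 weeks) or a high-fat diet (8 or 16 weeks). Suspensions were stained with hashtag antibodies, which carry a DNA barcode, and were then pooled into a single run that gave 1 transcriptome library and 1 hashtag library. All 6 tags therefore share sex, strain, depot, run and library. The diet behind each hashtag, and whether a tag is 1 mouse, are not given in these sources, so the 2 sets are named by their tag numbers only, a difference between them is a difference between tag sets, and every p-value measures only the spread between tag populations, which may be technical.

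Endothelial cells line blood and lymphatic vessels. In fat, capillary endothelium passes fatty acids from blood lipoproteins to adipocytes with the help of the lipase anchor Gpihbp1, the fatty acid receptor Cd36 and the carrier Fabp4. Arterial identity is set by Notch signalling, venous cells carry adhesion molecules such as Selp, and the vessels of lymph are marked by Prox1 and Lyve1. Caveolae, small pits of the plasma membrane built from caveolins and cavins, are abundant in these cells.

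The summed endothelial reads per tag ran from 1626854 to 2959972 in A0301–A0303 and from 2523098 to 4673578 in A0308–A0310, with a median of 13064.5 to 16533 reads per cell in A0301–A0303 and 15260.5 to 20270.0 in A0308–A0310. The deepest single cell held at most 7.26% of a tag's endothelial reads. The called hashtag had the most tag counts in 682 of the 708 cells, and no cell barcode was used more than once. Reads of 1 molecule are not independent, so depth in reads overstates precision.

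The gate markers carried the label in both sets. Pecam1, an adhesion protein of endothelial junctions, had 1682, 1563 and 1635 CPM in A0301, A0302 and A0303, against 1573, 1625 and 1677 CPM in A0308, A0309 and A0310. Cdh5, the cadherin of these junctions, averaged 1349 ± 158 CPM in A0301–A0303 and 1401 ± 190.4 CPM in A0308–A0310 (SD, n = 3 each), and Cldn5, a tight junction protein, averaged 1529 ± 219.5 CPM in A0301–A0303 and 1567 ± 364 CPM in A0308–A0310. For these 3 genes the sets overlapped. Egfl7, a secreted vascular protein, had 894 to 958 CPM in A0301–A0303, against 1133 to 1154 CPM in A0308–A0310, and Flt1, a receptor for VEGF, had 1144 to 1383 CPM in A0301–A0303, against 719 to 1121 CPM in A0308–A0310. Neither difference passed the test (edgeR adjusted p = 0.665 and 0.615), and the gate used these genes.

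The endothelium of A0301–A0303 had higher levels of Rbp7, Igfbp3, Fads3, Mylk, Cavin2, Fhl1 and Acta2 and a lower level of Rasd1 than that of A0308–A0310, by 1.94-fold (Cavin2) to 6.4-fold (Igfbp3) among the higher genes and 4.94-fold for the lower gene. They fall into genes of lipid handling (Rbp7, Fads3), a caveolar protein (Cavin2), an IGF carrier (Igfbp3), contractile and muscle genes (Mylk, Fhl1, Acta2) and a small GTPase (Rasd1). Across all genes, 8 differed between the sets at an adjusted p under 0.05 in edgeR's quasi-likelihood test on the 6 sums, 7 of them higher and 1 lower in A0301–A0303. That is 0.0656% of the 12199 genes tested, 0.0574% higher and 0.0082% lower. At an unadjusted p under 0.05, 484 genes (3.97%) were higher and 427 (3.5%) lower, and the 6 values did not overlap between the sets in 822 genes (6.74%) with the higher values and 912 genes (7.48%) with the lower values in A0301–A0303. DESeq2 called 141 genes (1.16%) on the same sums, all 8 among them. Every one of the 8 calls was lost in edgeR when any 1 of the 6 tags was left out, while each gene's direction held in all of these fits. Fewer cells that express a gene and less RNA per cell cannot be told apart in a sum, so the share of cells with reads is given beside the levels.

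Rbp7 encodes a cytosolic retinol carrier that is known from the endothelium of fat (chr4:149449687-149454978, minus strand, GRCm38). It had 1030.2, 798 and 976 CPM in A0301, A0302 and A0303, against 341, 348 and 359 CPM in A0308, A0309 and A0310. All 3 values of A0301–A0303 lay above all 3 of A0308–A0310, which lay close together. The log2 fold change was 1.42 ± 0.16 (SE; adjusted p = 0.035), a 2.67-fold higher level. Reads of Rbp7 were found in 53.3% to 69.4% of cells in A0301–A0303 and in 42.9% to 54.1% of cells in A0308–A0310.

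Fads3, a member of the fatty acid desaturase family (chr19:10041569-10060110, plus strand), had 153, 111 and 133 CPM in A0301, A0302 and A0303, against 29.3, 29.6 and 37.0 CPM in A0308, A0309 and A0310. The lowest value of A0301–A0303 was above the highest of A0308–A0310. The log2 fold change was 2.04 ± 0.27 (adjusted p = 0.0367), with reads in 23.1% to 28.8% of cells in A0301–A0303 and in 6.94% to 11.5% in A0308–A0310.

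Cavin2, a coat protein of caveolae (chr1:51289126-51302960, plus strand), had 3120.1, 3313 and 3270.3 CPM in A0301, A0302 and A0303, against 1657, 1917 and 1449 CPM in A0308, A0309 and A0310. The 3 values of A0301–A0303 were close together, all above the others. Its log2 fold change was 0.95 ± 0.13 (adjusted p = 0.0367), and it was detected in 90.0% to 93.8% of cells in A0301–A0303 and 77.7% to 82.6% in A0308–A0310.

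Igfbp3 encodes a secreted carrier of insulin-like growth factors (chr11:7206086-7213923, minus strand). It had 714, 429 and 389 CPM in A0301, A0302 and A0303, against 109.8, 86.7 and 45.6 CPM in A0308, A0309 and A0310. This was the largest of the 8 differences, 6.4-fold higher, with a log2 fold change of 2.68 ± 0.34 (adjusted p = 0.0367). The cells with reads made up 35.1% to 50.0% in A0301–A0303 and 10.1% to 11.6% in A0308–A0310. In the tag where it weighed most, a single cell held 32.7% of the Igfbp3 reads.

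Mylk, the kinase that phosphorylates myosin light chain (chr16:34745210-35002420, plus strand), had 229, 262 and 238 CPM in A0301, A0302 and A0303, against 88.8, 87.6 and 87.9 CPM in A0308, A0309 and A0310, a log2 fold change of 1.46 ± 0.20 (adjusted p = 0.0367). Fhl1, a LIM domain protein of muscle (chrX:56731787-56793346, plus strand), had 321, 259 and 307.1 CPM in A0301, A0302 and A0303, against 124, 87.3 and 76.6 CPM in A0308, A0309 and A0310, a log2 fold change of 1.63 ± 0.23 (adjusted p = 0.0418). Acta2, smooth muscle actin (chr19:34241090-34255590, minus strand), had 469.6, 321 and 558 CPM in A0301, A0302 and A0303, against 166, 124 and 152 CPM in A0308, A0309 and A0310, a log2 fold change of 1.60 ± 0.24 (adjusted p = 0.0418). In all 3 genes the sets did not overlap. Acta2 is a defining gene of smooth muscle and pericytes, the mural cells of vessels, and only 47 of the 708 cells held any of its reads, 5.56% to 8.96% in A0301–A0303 and 4.17% to 7.43% in A0308–A0310. One cell held 54.3% of the Acta2 reads of its tag. Among the 344 endothelial cells with few reads of other cell types (mural, macrophage and lymphocyte lists each under 500 CPM, fibroblast list under 1000 CPM), Mylk had a log2 fold change of 1.96 ± 0.46 and Fhl1 of 1.64 ± 0.37, neither passing there (adjusted p = 0.292 and 0.275). Acta2 is on the mural list that chose these cells, so it is not read in them. The deposited values of Acta2 and Mylk start at 8 and 6 reads per cell, and with the missing low values filled their log2 fold changes were 0.86 (adjusted p = 0.0943) and 0.66 (adjusted p = 0.232). Among cells with at most 10% mitochondrial reads, that of Acta2 was 0.76 (adjusted p = 0.883).

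Rasd1, a small Ras-related GTPase known to be induced by glucocorticoids (chr11:59963181-59964944, minus strand), was the single gene called lower. It had 23.4, 24.8 and 19.3 CPM in A0301, A0302 and A0303, against 104, 154 and 75.7 CPM in A0308, A0309 and A0310. Every tag of A0301–A0303 lay below every tag of A0308–A0310, and the log2 fold change was -2.30 ± 0.34 (adjusted p = 0.0418). It is a low gene, with reads in 93 of 708 cells, and in 1 tag a single cell held 59.5% of its reads.

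Car3 and Ptprb came next by p and did not pass. Car3, a carbonic anhydrase that is abundant in adipocytes, had 293, 191 and 255 CPM in A0301, A0302 and A0303, against 55.1, 34.1 and 10.5 CPM in A0308, A0309 and A0310 (log2 fold change 2.92 ± 0.47, adjusted p = 0.0825). Ptprb, an endothelial phosphatase that acts on the angiopoietin receptor Tek, had 2005, 1875 and 2219 CPM in A0301, A0302 and A0303, against 1103, 1259 and 1099.8 CPM in A0308, A0309 and A0310 (log2 fold change 0.82 ± 0.13, adjusted p = 0.0825). Neither gene's sets overlapped.

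**Figure D1:**
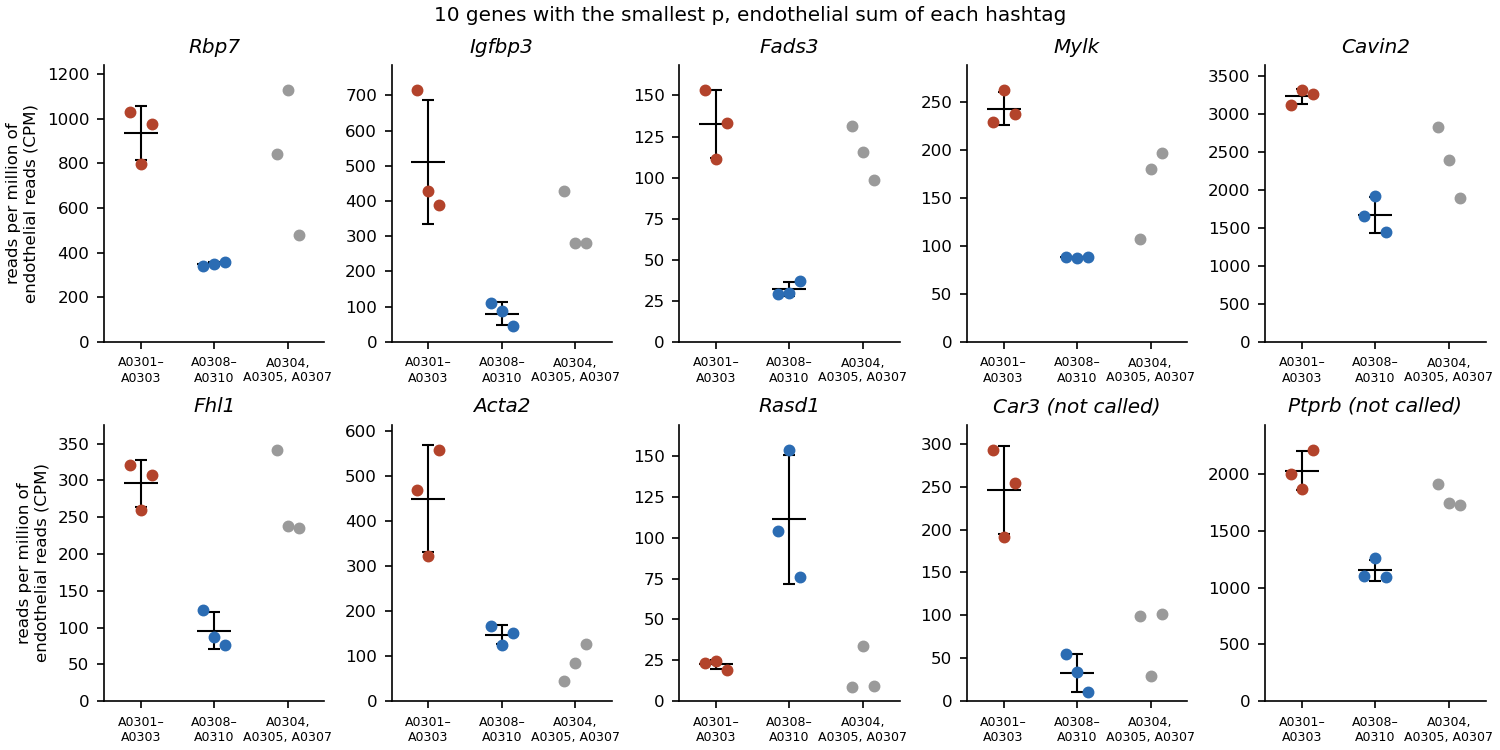
Summed endothelial reads as CPM of the 10 genes with the smallest p, 1 point per hashtag, with the mean and SD of 3 tags for A0301–A0303 and A0308–A0310; grey points are the 3 tags outside the comparison. The 2 coloured sets do not overlap in any panel; Rasd1 is the gene whose values are lower in A0301–A0303.

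The 3 tags outside the comparison gave these genes different places. In A0304, A0305 and A0307, Fads3 (131, 115 and 98.4 CPM), Fhl1 (342, 238 and 235 CPM) and Ptprb (1913, 1752 and 1734 CPM) lay near A0301–A0303. Acta2, at 43.8, 85.5 and 126 CPM, lay within the range of A0308–A0310 or below it. Igfbp3, at 427, 281 and 282 CPM, stood above all of A0308–A0310, while Rasd1, at 8.89, 33.9 and 9.23 CPM, stood below all of it. Rbp7, at 843, 1126 and 479 CPM, spread across a wide range above A0308–A0310. Mylk, at 107, 180 and 197 CPM, lay between the sets. Cavin2, at 2835, 2392 and 1890 CPM, lay below all of A0301–A0303, with A0307 inside the range of A0308–A0310. Car3, at 99.7, 28.8 and 101 CPM, lay below all of A0301–A0303 too, with A0305 inside the range of A0308–A0310. These 3 tags entered only the alternative fit of all 9 tags.

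Of the 8 genes, 7 have a promoter window in RefSeq (GRCm38.p6), 8 windows in all, taken here as the 250 bases before the start. These were searched on both strands for TGGGAA, the core that the Notch partner Rbpj binds, because Notch genes are described below, and for the CArG box, the element of serum response factor at genes of muscle, because Acta2, Mylk and Fhl1 are such genes. TGGGAA occurred in 3 of the 8 windows, and in 21.6% of all 32851 windows. The CArG box, searched as CCWWWWWWGG with W being A or T, occurred in 1 of the 8, and in 1.47% of all windows. Looser forms were not counted. The window of Acta2 holds CCCTATATGG and CCTTGTTTGG, each with 1 base in the core outside this pattern. The second of them shares letters with the TGGGAA of that window. The window of Rbp7 (TGGGAA in capitals) and that of Fhl1 with the CArG box (in capitals) are shown because they hold these letters in genes called here. A match is a run of letters and not a bound site, and a window without one says nothing of the factor.
Rbp7, chr4:149454969-149455218, minus strand: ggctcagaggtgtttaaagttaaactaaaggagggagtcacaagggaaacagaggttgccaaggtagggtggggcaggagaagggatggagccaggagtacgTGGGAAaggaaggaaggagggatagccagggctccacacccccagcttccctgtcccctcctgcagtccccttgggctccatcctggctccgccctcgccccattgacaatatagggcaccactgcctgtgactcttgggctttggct
Fhl1, chrX:56779433-56779682, plus strand: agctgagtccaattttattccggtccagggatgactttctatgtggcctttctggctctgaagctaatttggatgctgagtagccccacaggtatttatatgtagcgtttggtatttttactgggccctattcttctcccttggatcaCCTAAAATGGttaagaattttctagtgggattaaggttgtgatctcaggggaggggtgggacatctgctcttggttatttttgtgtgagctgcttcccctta

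Cells were also set apart by vessel type, as cells with at least 3 markers of a list at 100 CPM. These classes are ranges that can overlap, not cell types. Arterial-marked cells were 112 of the 708, venous-marked 88, capillary-marked 531 and lymphatic-marked 34, and 82 cells carried none of the 4 marks. Of the 112 arterial-marked cells, 79 also carried the capillary mark. Close to the threshold of the arterial list, 105 cells had 2 markers and 58 had 3.

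The arterial-marked share was 23.8%, 16.7% and 26.1% of endothelial cells in A0301, A0302 and A0303, against 15.2%, 10.4% and 7.43% in A0308, A0309 and A0310. Each value of A0301–A0303 was above each of A0308–A0310. The means were 22.2% ± 4.92 in A0301–A0303 and 11.01% ± 3.91 in A0308–A0310 (SD, n = 3 each), a difference of 11.2 percentage points with a two-sided exact permutation p = 0.1, the smallest p that 3 against 3 tags allow. With every cell thinned to 5000 reads the difference was 10.9 percentage points, and the sets again did not overlap. The tags outside the comparison had 10.99%, 18.4% and 11.1%, overlapping both sets.

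The other shares overlapped between the sets with the gate as defined. Venous-marked cells made up 5.0%, 18.9% and 6.72% in A0301–A0303, against 12.5%, 9.03% and 20.9% in A0308–A0310 (exact permutation p = 0.5). Capillary-marked cells made up 66.3%, 74.4% and 73.9% in A0301–A0303, against 72.3%, 80.6% and 77.7% in A0308–A0310 (exact permutation p = 0.3). Among cells with at most 10% mitochondrial reads the capillary-marked shares did not overlap, at 70.7%, 75.3% and 75.0% in A0301–A0303, against 81.5%, 82.8% and 81.0% in A0308–A0310, a difference of -8.09 percentage points (exact permutation p = 0.1, again the smallest possible). Lymphatic-marked cells, 3 to 8 a tag, made up 7.5%, 8.89% and 3.73% in A0301–A0303, against 5.36%, 2.08% and 4.05% in A0308–A0310 (exact permutation p = 0.3). Endothelial cells were 9.72%, 9.34% and 12.7% of the cells with at most 25% mitochondrial reads in A0301–A0303, against 7.79%, 9.78% and 12.2% in A0308–A0310 (exact permutation p = 0.7). These are 5 shares in 1 family, and since no raw p went under 0.1 there, none passes any correction.

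**Figure D2:**
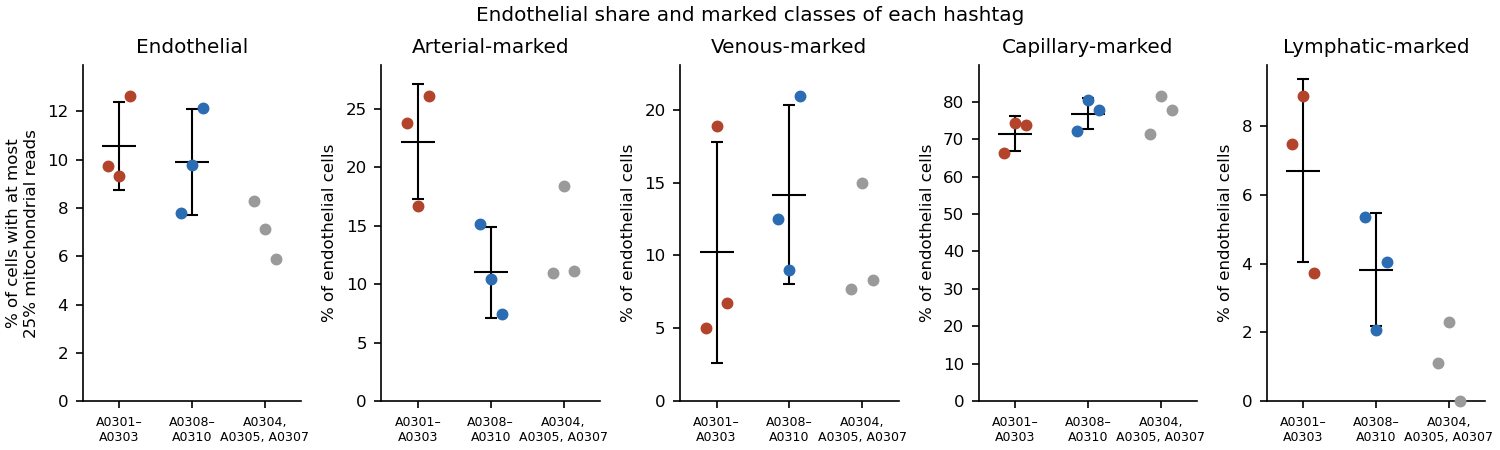
Share of the cells with at most 25% mitochondrial reads that are endothelial, and share of endothelial cells with an arterial, venous, capillary or lymphatic mark, in percent, 1 point per hashtag with the mean and SD of 3 tags; grey points are the 3 tags outside the comparison. With this gate only the arterial-marked share keeps the 2 sets apart, at 16.7% to 26.1% in A0301–A0303 and 7.43% to 15.2% in A0308–A0310.

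None of the 8 tested arterial markers passed edgeR's test. By an unadjusted p under 0.05, 3 lay higher and 0 lower, DESeq2 called 2, and the median log2 fold change was 0.68, against -0.01 over all genes tested. Over all genes tested, 3.97% lay higher and 3.5% lower at that edgeR p, and DESeq2 called 1.16%. These shares stand beside every list count given below. The members named from here on that did not pass were chosen after their values were seen. Stmn2, a microtubule regulator used as a marker of large arteries, had 159, 81.4 and 112 CPM in A0301, A0302 and A0303, against 47.2, 34.7 and 34.0 CPM in A0308, A0309 and A0310 (adjusted p = 0.161). Sema3g, a semaphorin of arterial endothelium, had 670.0, 436 and 529.7 CPM in A0301–A0303, against 398, 300.2 and 193 CPM in A0308–A0310 (adjusted p = 0.413). Gja4, a connexin of arteries, had a log2 fold change of -0.71 ± 0.51.

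Of the 10 tested Notch receptors, ligands and targets none passed, 5 lay higher and 0 lower at an unadjusted p under 0.05, DESeq2 called 1, and the median log2 fold change was 0.56. All 10 fitted values were above 0, the lowest 0.31. The receptor Notch1 had 298, 279 and 299 CPM in A0301, A0302 and A0303, against 146, 162 and 130.3 CPM in A0308, A0309 and A0310 (log2 fold change 1.00 ± 0.19, adjusted p = 0.117). The ligand Dll4 had 193, 236 and 191 CPM in A0301–A0303, against 111, 137 and 125 CPM in A0308–A0310 (adjusted p = 0.364), and the ligand Dll1 averaged 73.0 ± 24.0 CPM in A0301–A0303 and 30.1 ± 13.1 CPM in A0308–A0310 (adjusted p = 0.472). The target Hey1, which is on the arterial list as well, overlapped between the sets.

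The arterial-marked cells and the rest of the endothelium were read separately for the 10 genes. Arterial-marked cells numbered 19, 15 and 35 in A0301, A0302 and A0303, against 17, 15 and 11 in A0308, A0309 and A0310. No fit was run on these few cells, so only their levels are given. In the arterial-marked cells alone, Rbp7 had 1515, 1805 and 1511 CPM in A0301, A0302 and A0303, against 693, 573 and 766 CPM in A0308, A0309 and A0310, and Igfbp3 had 862, 1283 and 643 CPM in A0301–A0303, against 196, 218 and 151 CPM in A0308–A0310. With those cells left out, Rbp7 had 804, 544 and 703 CPM in A0301–A0303, against 232, 311.6 and 316.5 CPM in A0308–A0310. The sets stayed apart in both groups of cells for both genes. They did not for all 8: in the arterial-marked cells Mylk had 336, 147 and 346 CPM in A0301–A0303, against 43.5, 45.5 and 221 CPM in A0308–A0310, and Acta2 had 209, 0 and 1096 CPM in A0301–A0303, against 256, 0 and 411 CPM in A0308–A0310, overlapping in both genes. Over the 596 cells without the arterial mark, the log2 fold changes of the 8 genes lay between 0.97 and 2.63 in size, none passing (0 of 11296 genes, 829 at an unadjusted p under 0.05). Over the 402 cells with the capillary mark alone, Rbp7 had a log2 fold change of 1.70 ± 0.23 (adjusted p = 0.124), Igfbp3 of 2.66 ± 0.46 (adjusted p = 0.237), and Cavin2 of 0.79 ± 0.20 (adjusted p = 0.444), again with 0 genes called of 9611 and 636 at an unadjusted p under 0.05. There too the sets overlapped in Mylk, at 63.1, 250.4 and 163 CPM in A0301–A0303, against 36.0, 89.8 and 47.0 CPM in A0308–A0310, and in Acta2, which had 0 CPM in A0301 and 32.4 to 52.5 CPM in A0308–A0310. The Notch1 difference was 0.77 ± 0.24 without the arterial-marked cells.

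Fatty acid uptake and storage genes had no single direction. None of 26 passed, 2 lay higher and 5 lower at an unadjusted p under 0.05, DESeq2 called 5, and the median log2 fold change was -0.18. Cd36 had 6545, 7287 and 7542 CPM in A0301–A0303, against 7229, 9341 and 8973 CPM in A0308–A0310, Fabp4 averaged 16679 ± 1719 CPM in A0301–A0303 and 17617 ± 1449 CPM in A0308–A0310, and Gpihbp1 averaged 2243 ± 364 CPM in A0301–A0303 and 2069.7 ± 486 CPM in A0308–A0310. The sets overlapped in these 3 genes. The 2 genes with the smallest p on the list were Scarb1, a receptor for high-density lipoprotein, with 318, 298 and 288 CPM in A0301–A0303, against 510.1, 653 and 576 CPM in A0308–A0310 (log2 fold change -0.94 ± 0.17, adjusted p = 0.112), and Lpl, lipoprotein lipase, with 346, 437 and 595 CPM in A0301–A0303, against 856, 1188 and 761 CPM in A0308–A0310 (log2 fold change -1.02 ± 0.22, adjusted p = 0.203). In 1 tag a single cell held 34.8% of the Lpl reads. In the fibroblasts of the same tags, described below, Lpl was lower too and passed (log2 fold change -1.14 ± 0.20, edgeR adjusted p = 0.0443). The deposited values of Lpl start at 15 reads per cell. Over all cells with at most 25% mitochondrial reads, median reads per cell were 28664 to 30112.5 in A0301–A0303 and 40931 to 51176.5 in A0308–A0310. Whether the missing low values add to the Lpl difference in fibroblasts was not tested. The carrier Fabp5 averaged 466 ± 69.5 CPM in A0301–A0303 and 805 ± 226 CPM in A0308–A0310 (adjusted p = 0.311). In the list of fatty acid oxidation and PPAR targets, 0 of 12 passed, 1 lay higher and 1 lower at an unadjusted p under 0.05, and DESeq2 called 0.

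Of the 7 capillary markers none passed, 1 lay higher and 2 lower at an unadjusted p under 0.05, and DESeq2 called 1. Car4, a carbonic anhydrase on the capillary surface, had 358, 307.7 and 366 CPM in A0301–A0303, against 602, 752 and 442 CPM in A0308–A0310 (log2 fold change -0.79 ± 0.20, adjusted p = 0.298). Of the 7 venous markers none passed, 0 lay higher and 2 lower at an unadjusted p under 0.05, and DESeq2 called 1. Selp, a leukocyte receptor of veins, had 23.4, 103 and 45.6 CPM in A0301–A0303, against 160.1, 135 and 181 CPM in A0308–A0310 (adjusted p = 0.386). Of the 7 lymphatic markers none passed, 4 lay higher and 0 lower at an unadjusted p under 0.05, and DESeq2 called 1. Mmrn1, an extracellular protein of lymphatic vessels, had 744, 1095 and 443 CPM in A0301–A0303, against 336, 204 and 253 CPM in A0308–A0310 (adjusted p = 0.174). Mmrn1 reads were found in 36 of the 708 cells, and those of the lymphatic receptor Flt4 in 87. Without the 34 lymphatic-marked cells 7 of the 8 called genes passed as before, Rasd1 being the exception (adjusted p = 0.0742). Of the 15 further genes of endothelial identity none passed, 2 lay higher and 0 lower at an unadjusted p under 0.05, and DESeq2 called 2, Ptprb among them.

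Of the 12 tested genes of caveolae and transport, 1 passed (Cavin2), 5 lay higher and 2 lower at an unadjusted p under 0.05, DESeq2 called 2, and the median log2 fold change was 0.36. Cavin1, the main coat protein of caveolae, had 1429, 1204 and 1521 CPM in A0301, A0302 and A0303, against 797, 823 and 696 CPM in A0308, A0309 and A0310 (log2 fold change 0.84 ± 0.15, adjusted p = 0.106). Cav1, the caveolin that forms them, averaged 1949 ± 147 CPM in A0301–A0303 and 1553 ± 234 CPM in A0308–A0310 (adjusted p = 0.631), and Cavin3, another cavin, averaged 459.5 ± 41.9 CPM in A0301–A0303 and 323 ± 51.8 CPM in A0308–A0310 (adjusted p = 0.547). Over the 12 genes the sets did not overlap in 6 with the higher and 1 with the lower values in A0301–A0303, beside 6.74% and 7.48% of all genes tested. Plvap, the protein of endothelial diaphragms, had a log2 fold change of -0.69 ± 0.31.

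**Figure D3:**
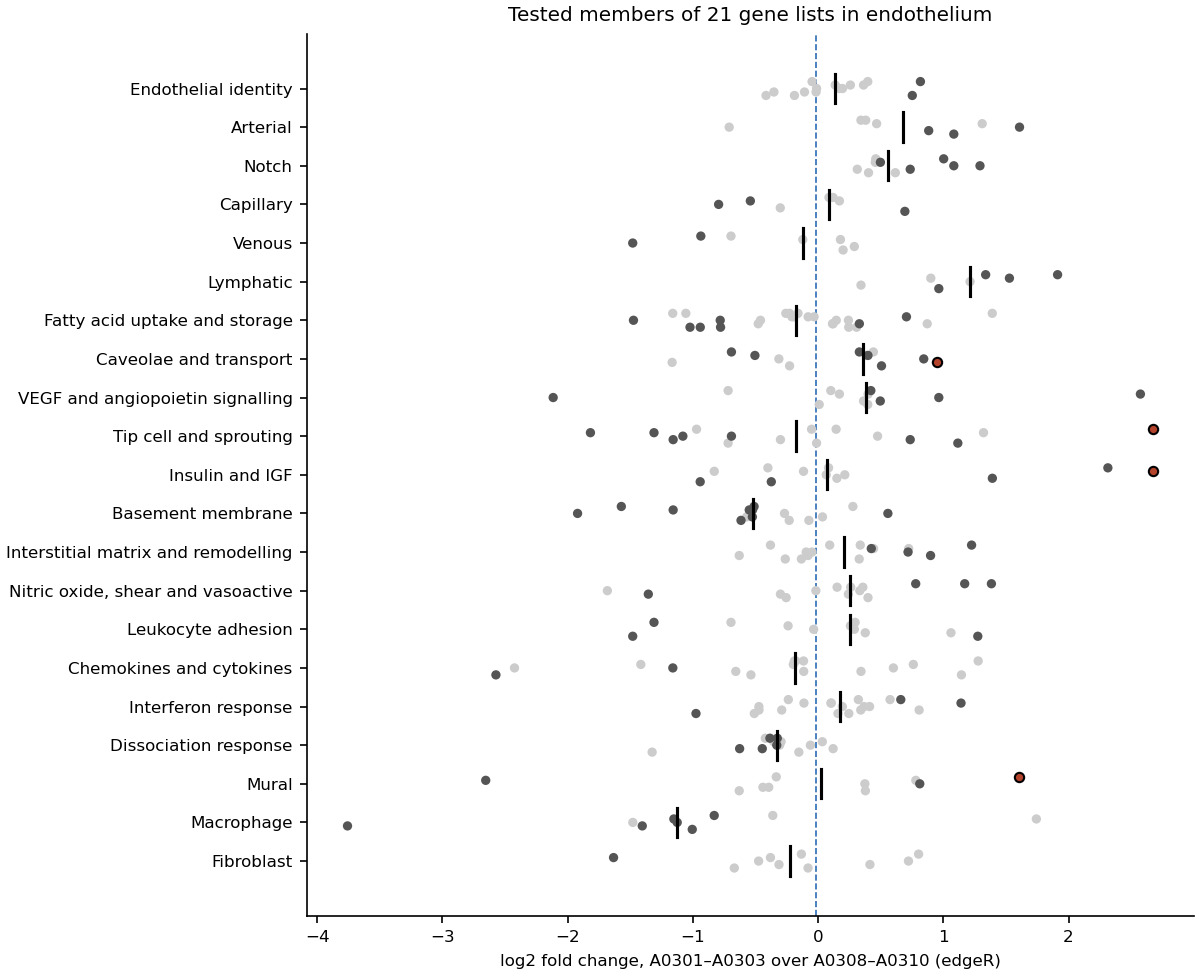
Log2 fold change of each tested member of 21 gene lists, A0301–A0303 over A0308–A0310; red points passed an adjusted p of 0.05, dark grey points have an unadjusted p under 0.05, light grey points neither. Black bars are list medians, from -1.12 (macrophage) to 1.21 (lymphatic), and the dashed line is the median of all genes tested, -0.01.

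Genes of vessel growth lay in both directions. In the tip cell and sprouting list 1 of 16 genes passed (Igfbp3), 3 lay higher and 5 lower at an unadjusted p under 0.05, DESeq2 called 5, and the median was -0.18. Aplnr, the apelin receptor, had 18.4, 67.2 and 52.4 CPM in A0301–A0303, against 102, 167 and 217 CPM in A0308–A0310 (adjusted p = 0.235), and Cd34, a surface sialomucin, had 195, 373 and 283 CPM in A0301–A0303, against 488, 719 and 899 CPM in A0308–A0310 (adjusted p = 0.188). Podxl, a sialomucin of the same family, stood the other way, at 775, 404 and 634 CPM in A0301–A0303, against 233, 285 and 233 CPM in A0308–A0310 (log2 fold change 1.28 ± 0.24, adjusted p = 0.116). In the VEGF and angiopoietin list 0 of 12 passed, 4 lay higher and 1 lower at an unadjusted p under 0.05, and DESeq2 called 0. In the insulin and IGF list 1 of 12 passed (Igfbp3), with 3 higher and 2 lower at an unadjusted p under 0.05 and 3 called by DESeq2. Igfbp5, another IGF carrier, had 509, 344 and 225 CPM in A0301–A0303, against 149, 186 and 80.2 CPM in A0308–A0310 (adjusted p = 0.27), with up to 80.8% of a tag's reads in 1 cell.

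Basement membrane genes had the lowest median among the lists of endothelial function in the plot of list members, at -0.52. None of 15 passed, 1 lay higher and 8 lower at an unadjusted p under 0.05, and DESeq2 called 1. The shares over all genes tested were 3.97% higher, 3.5% lower and 1.16% called by DESeq2. The laminin chain Lamb1 had 75.0, 84.9 and 70.6 CPM in A0301, A0302 and A0303, against 101, 199.8 and 212 CPM in A0308, A0309 and A0310 (log2 fold change -1.16 ± 0.30, adjusted p = 0.298). The collagen chain Col4a2 had 532, 668 and 728 CPM in A0301–A0303, against 774, 1214 and 839 CPM in A0308–A0310 (adjusted p = 0.51). The laminin chain Lamb2 was the member above, with a mean of 312.1 ± 35.8 CPM in A0301–A0303 and 212 ± 32.2 CPM in A0308–A0310 (adjusted p = 0.5). Of 16 genes of interstitial matrix and remodelling none passed, 4 lay higher and 0 lower at an unadjusted p under 0.05, and DESeq2 called 2. Among them, the protease Adamts1 had 979.8, 722 and 756 CPM in A0301–A0303, against 496, 237 and 318 CPM in A0308–A0310 (adjusted p = 0.199), and the protease inhibitor Timp3 had 2303, 3015 and 3343 CPM in A0301–A0303, against 1729.6, 1847 and 1682 CPM in A0308–A0310 (adjusted p = 0.174).

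Vasoactive and shear genes gave 0 calls of 14, with 3 higher and 1 lower at an unadjusted p under 0.05 and 2 called by DESeq2. The nitric oxide synthase Nos3 had 116, 90.8 and 113 CPM in A0301–A0303, against 46.0, 62.1 and 34.9 CPM in A0308–A0310 (log2 fold change 1.17 ± 0.29, adjusted p = 0.27). The shear-responsive factor Klf2 had 1101, 1073 and 1049 CPM in A0301–A0303, against 960.3, 782 and 945 CPM in A0308–A0310 (adjusted p = 0.759).

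Inflammatory genes gave no calls. Of 11 leukocyte adhesion genes 1 lay higher and 2 lower at an unadjusted p under 0.05, and DESeq2 called 3. Of 16 chemokines and cytokines 0 lay higher and 2 lower, and DESeq2 called 2. The cytokine Il6 had 19.7, 5.9 and 14.9 CPM in A0301–A0303, against 75.7, 64.4 and 100.4 CPM in A0308–A0310 (adjusted p = 0.106), and in 1 tag a single cell held all of its reads. Of 20 interferon response genes 2 lay higher and 1 lower, and DESeq2 called 0. The lists of MHC class I (10 genes tested) and class II (6 genes tested) had 0 genes at an unadjusted p under 0.05 in either direction and 0 called by DESeq2.

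The proliferation list had 0 of 15 called, 3 higher and 0 lower at an unadjusted p under 0.05, and 0 called by DESeq2, with single cells holding all of a tag's reads of several members. Junctions (12 tested, 2 higher), TGF-beta and BMP (17 tested, 1 higher), coagulation (9 tested, 1 lower), cell cycle arrest and p53 (9 tested, 1 higher and 1 lower), glycolysis and hypoxia (12 tested) and oxidative stress (14 tested) held 0 edgeR calls and 0 DESeq2 calls each, and the counts in parentheses are those at an unadjusted p under 0.05.

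Of the markers of other cell types in the gated cells, Acta2 alone passed edgeR's test. The 10 macrophage markers summed to 462, 407 and 444 CPM in A0301–A0303, against 572, 592 and 1271 CPM in A0308–A0310. Of the 9 tested, 6 were lower and 0 higher at an unadjusted p under 0.05, and 0 passed in edgeR or DESeq2. The mural list summed to 1591, 1443 and 2687 CPM in A0301–A0303, against 2158, 1642 and 1069 CPM in A0308–A0310, and the pericyte gene Rgs5 had 399, 460.4 and 1336 CPM in A0301–A0303, against 1381, 949 and 431 CPM in A0308–A0310, overlapping. Of the 10 mural genes 1 passed (Acta2), with 2 higher and 1 lower at an unadjusted p under 0.05 and 3 called by DESeq2. The fibroblast list summed to 422, 531 and 695 CPM in A0301–A0303, against 804, 825 and 601 CPM in A0308–A0310, the adipocyte list to 86.1, 85.5 and 138 CPM in A0301–A0303, against 97.9, 36.0 and 19.9 CPM in A0308–A0310, and the T, NK and B cell list to at most 80.7 CPM in any tag. At an unadjusted p under 0.05, 1 of 10 fibroblast markers was lower and 1 called by DESeq2, 1 of 5 adipocyte markers was higher, 1 of 4 dendritic cell and monocyte markers was lower and 1 called by DESeq2, 1 of 2 platelet markers was lower, and 0 of 4 T, NK and B cell markers and 0 of 2 nuclear RNAs differed. None of these passed in edgeR, and no mesothelial or erythroid marker was high enough to be tested. Erythroid genes had 0 CPM in 5 tags and 138 CPM in A0310. Genes of the response to tissue dissociation summed to 13780, 14430 and 13950 CPM in A0301–A0303, against 18610, 14500 and 18680 CPM in A0308–A0310, with 5 of 14 lower and 0 higher at an unadjusted p under 0.05 and 0 called by edgeR or DESeq2. In A0304, A0305 and A0307, outside the comparison, these genes summed to 5595, 10770 and 5601 CPM, below all 6 compared tags. The part of these reads in the differences was not tested beyond the cells with few reads of other types. There, 0 of 9643 genes passed in edgeR, 654 had an unadjusted p under 0.05, and the 9 named genes other than Acta2, which the choice of these cells used, kept their direction.

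Fibroblasts of the same 6 tags, 2046 cells with at least 3 of Pdgfra, Dcn, Lum and Dpt at 100 CPM, served to ask whether the endothelial differences were shared. In fibroblasts, 191 of 16584 genes (1.15%) passed in the same contrast. None of the 10 named genes was among them. Rbp7 had a log2 fold change of 0.30 ± 0.56 in fibroblasts, Igfbp3 of -0.23 ± 0.66, Fads3 of 0.07 ± 0.12, Cavin2 of 0.03 ± 0.17 and Rasd1 of -0.43 ± 0.37. Levels in fibroblasts were low for Rbp7 (0.99 to 4.18 CPM), Rasd1 (2.39 to 5.21 CPM) and Ptprb (1.53 to 5.78 CPM). Igfbp3 had 7.59 to 38.2 CPM there. For such low genes the fibroblast fit says little of whether a difference is shared. Fhl1 had 0.44 ± 0.09 there (adjusted p = 0.0805), on the same side as in endothelium, and Acta2 with -0.95 ± 0.47 and Mylk with -0.54 ± 0.26 lay on the other side (adjusted p = 0.472 and 0.462). The difference between endothelium and fibroblasts was tested as an interaction, with the tag as a block, and 0 of 16638 genes passed (0.0%), with 1043 (6.27%) at an unadjusted p under 0.05. The smallest interaction p among the named genes was that of Igfbp3, with a difference of 3.04 ± 0.43 on the log2 scale (adjusted p = 0.139), and Fads3 had 1.98 ± 0.31 (adjusted p = 0.212). No gene was shown to differ in endothelium beyond fibroblasts.

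The other cells of each tag, all types summed, were those with at most 25% mitochondrial reads outside the endothelial gate. Over the 6 tags they include 97 cells with 2 endothelial markers. They also include 81 cells with at least 3 that exceeded the limit on macrophage and fibroblast markers. What these cells add to the sums was not tested. Several of the genes stood in the same order there as in endothelium. Acta2 had 214, 318 and 241 CPM in the other cells of A0301–A0303, against 23.7, 49.5 and 47.1 CPM in those of A0308–A0310, and Mylk had 68.1, 80.6 and 91.2 CPM in those of A0301–A0303, against 31.2, 27.1 and 22.5 CPM in those of A0308–A0310. Cavin2 had 248, 267 and 264 CPM in the other cells of A0301, A0302 and A0303, against 60.1, 49.4 and 36.9 CPM in those of A0308, A0309 and A0310, and Fhl1 had 207, 242 and 179 CPM in those of A0301–A0303, against 58.4, 45.6 and 43.0 CPM in those of A0308–A0310. Fads3 had 47.2, 47.8 and 37.0 CPM there in A0301–A0303, against 21.4, 17.1 and 15.6 CPM in A0308–A0310, and Igfbp3, at lower levels, had 25.3, 11.4 and 16.8 CPM in A0301–A0303, against 9.33, 6.21 and 1.79 CPM in A0308–A0310. In these 6 genes the sets did not overlap there, as in 35.3% of the 12199 genes with the higher values in A0301–A0303, and 22.9% with the lower. Rbp7, with 7.48, 6.33 and 9.95 CPM in A0301–A0303, against 6.0, 6.36 and 2.25 CPM in A0308–A0310, and Rasd1, with 6.36, 10.4 and 7.02 CPM in A0301–A0303, against 3.72, 6.44 and 2.67 CPM in A0308–A0310, overlapped. The mixture of those cells differed too, with 384, 444 and 408 fibroblasts in A0301–A0303, against 340, 292 and 178 in A0308–A0310. These were out of 823, 964 and 1059 cells with at most 25% mitochondrial reads in A0301–A0303, endothelial cells included. In A0308–A0310 they were out of 1438, 1472 and 1218, so each tag of A0301–A0303 had the larger fibroblast part. Whether reads from other cells in the pool add to the endothelial values was not tested.

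**Figure D4:**
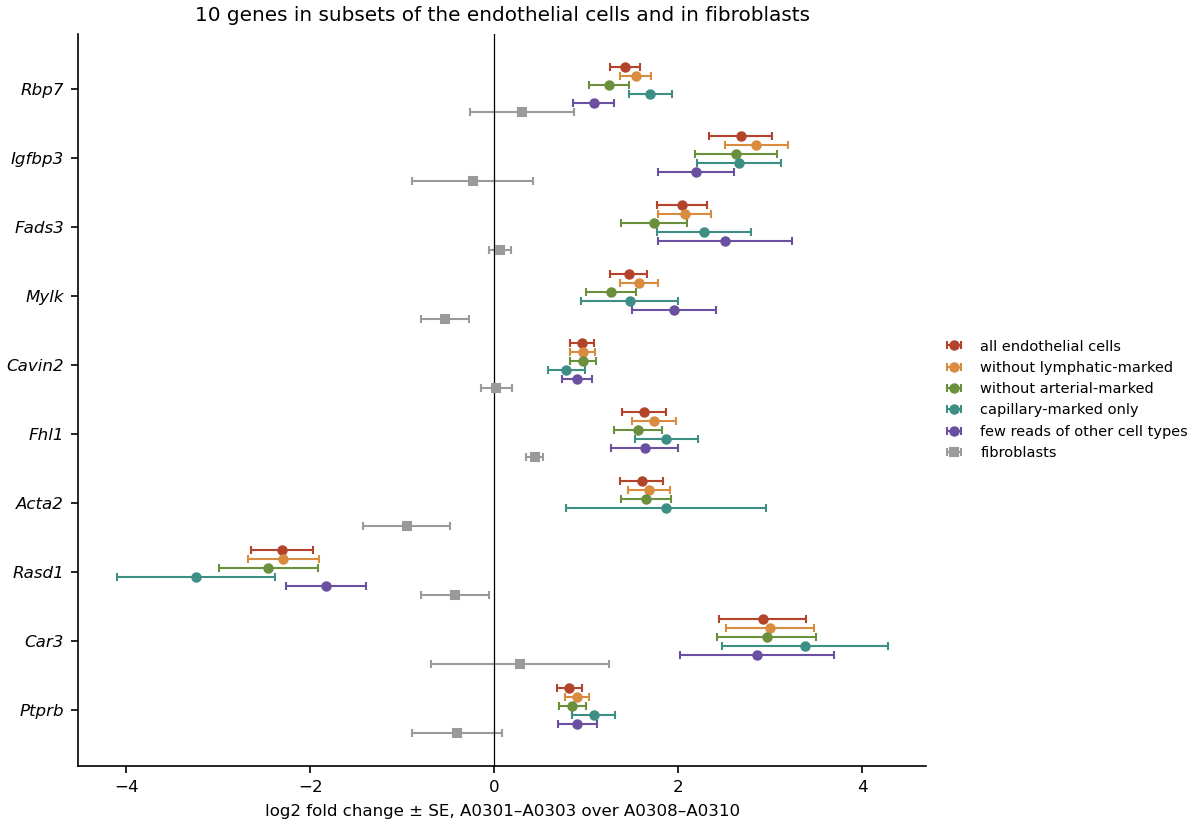
Log2 fold change ± SE, A0301–A0303 over A0308–A0310, of the 10 genes with the smallest p in all endothelial cells, in 4 subsets of them and, as grey squares, in fibroblasts. The endothelial points of each gene share a side of 0; Acta2 has no point among cells with few reads of other types, which were chosen in part by its list.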

How the data were processed

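The authors deposited whole-number counts per gene and cell, taken here as reads since no collapse to molecules is recorded, and counts per hashtag and cell. Per the submitters' processing notes, the build was GRCm38 and the tools were R 3.6.3, Bowtie2 2.4.2 and cutadapt 2.10, among others; how cells and hashtags were called is not given in the sources used here. Cell names carry the authors' hashtag call; 12 columns without one and all doublet calls were left out, and no other doublet caller was run. Endothelial reads were summed per tag, and 12199 of 29417 genes kept by filterByExpr were tested in edgeR 4.0.16 (TMM, quasi-likelihood, Benjamini-Hochberg over all genes tested, no covariate). The SE of each edgeR log2 fold change was its size divided by the square root of the test's F statistic. That statistic also gave the p-value. DESeq2 1.42.0, limma 3.58.1 (log2(CPM + 1), mean CPM of at least 5) and other gates, filters and left-out tags were alternatives. Some genes lack low values, so 1 alternative replaced each 0 by the most that such a gap can hide. Positions are from GENCODE M21, which holds 28350 of the symbols; promoters are RefSeq's. Python 3.11.15 and R 4.3.3 were used, and the fits were tested on simulated data.

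The gate, the tag sets and the 39 gene lists were chosen with earlier results of these data known. Genes are named by rule: the 10 with the smallest p when fewer than 10 pass, list members that pass, and the 5 gate markers. Further list members that did not pass are named outside this rule, chosen after their values were seen. The labels give no diet, animal or batch per tag, so the groups are tag numbers.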

Additional observations from a re-analysis of the deposited data

How the results depend on the processing

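The count of 8 differing genes was 8 with DESeq2 size factors, 8 with at least 2 endothelial markers, 8 without lymphatic-marked cells, 7 with missing low values filled and 11 with limma on mean cell CPM. It was 141 in DESeq2's own test, 201 without a filter on low counts (of 23915 genes), 30 with cells thinned to 5000 reads, 4 with all 9 tags in the fit, and 4 with at least 4 endothelial markers. It was 0 with other-type markers under 100 CPM and 0 with mitochondrial reads at most 10% (762 and 814 genes at an unadjusted p under 0.05). Leaving out 1 tag gave 0 to 1 genes, with 751 to 1114 at an unadjusted p under 0.05. Alternatives added after seeing the data gave 8 where the called tag held at least 2/3 of at least 10 tag counts, and 0 in cells with few reads of other cell types, without arterial-marked cells and with the capillary mark alone. The causes were not tested. None of the 10 named genes reversed in any fit. The count of genes differing between endothelium and fibroblasts, 0, was 1 with DESeq2 size factors, 107 without a filter, and 0 to 1 with 1 tag left out. The differences in the 5 shares moved by less than the larger of the 2 sets' SDs under every alternative. That of the lymphatic-marked share, 2.88 percentage points (SD 2.67 in A0301–A0303 and 1.65 in A0308–A0310), was 0.438 with other-type markers under 100 CPM and 1.42 with at least 4 endothelial markers, and that of the capillary-marked share, -5.33, was -8.09 with mitochondrial reads at most 10%. The endothelial share's difference lay between -0.40 and 1.78 percentage points and the arterial share's between 9.20 and 13.9 with 1 tag left out. No paired analysis was possible because the labels give the tags no replicate numbers. With 3 tags a set and 80 to 148 cells a tag, low genes and rare cells rest on few cells.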
